A study of Mus musculus with 3 samples.

Results

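The nuclei described here are glutamatergic nuclei of the mouse basolateral amygdala (BLA) in which *Etv1* transcripts and no *Rspo2* transcript were detected. They were chosen by their UMIs, the unique molecular identifiers that count single RNA molecules. A nucleus entered the glutamatergic base if it held at least 1 UMI of *Slc17a7* or *Slc17a6*, no UMI of *Gad1* or *Gad2*, and less than 0.1% of its UMIs in the astrocyte transporters *Slc1a2* and *Slc1a3*. Base nuclei with at least 2 *Etv1* UMIs, no *Rspo2* or *Pde11a* UMI and fewer than 2 UMIs of *Rorb* and of *Grik1* are called *Etv1*+/*Rspo2*- nuclei below. There were 162 of them among 1306 base nuclei and 8380 barcodes of libraries 2 and 3, and among 9199 barcodes of all 3 libraries. Library 2 gave 94 and library 3 gave 68. Library 1 gave 0 of 58 base nuclei, which allows a share of up to 5.17% when a count of 0 is taken to allow 3 (counting error only).

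The study profiled BLA neurons by single-nucleus RNA sequencing. All libraries came from 1 group, male C57BL/6NRj mice labelled p56, with no transgene and no treatment named, and each dataset pooled the BLA of both hemispheres from 4 brains of the same litter. The labels do not say which brains went into which library, so the spread between libraries may be technical. The p-values weigh the difference between arms within a library against its variation between libraries, helped by a spread estimate shared across genes. They need not reflect spread between animals. The libraries held 819, 3792 and 4588 barcodes, and summed to 8078394, 24354374 and 33049068 UMIs. Libraries 2 and 3 shared 7 barcode sequences, of which 0 were *Etv1*+/*Rspo2*- nuclei.

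*Etv1* (also known as Er81) is a transcription factor of the ETS family. In the cerebral cortex it is a well-known marker of deep-layer projection neurons, and ETS factors of its subgroup act downstream of receptor tyrosine kinases and ERK signalling. *Rspo2* encodes an R-spondin, a secreted protein that enhances WNT signalling, and marks a large population of the basal amygdala. The gene *Etv1* lies at chr12:38779380-38870484 and *Rspo2* at chr15:43020794-43170826 (GRCm38, the assembly of mm10).

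*Etv1*+/*Rspo2*- nuclei made up 11.5% of the base in library 2 (94 of 819, exact Clopper-Pearson 95% interval 9.38 to 13.9%) and 14.0% in library 3 (68 of 487, 11 to 17.4%), which gives 12.7 ± 1.76% (SD, n = 2 libraries). The intervals of both libraries overlapped. Of base nuclei with at least 2 *Etv1* UMIs, 149 of 252 in library 2 and 101 of 143 in library 3 had no *Rspo2* UMI. The limit on *Grik1* took 30 and 20 of these nuclei out, the limit on *Rorb* 19 and 9, and that on *Pde11a* 11 and 6, in libraries 2 and 3. Within the nuclei kept, *Etv1* ranged from 2 to 13 UMIs (median 3) in library 2 and from 2 to 17 UMIs (median 3) in library 3.

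The gate selected deep nuclei. The median depth of *Etv1*+/*Rspo2*- nuclei was 13527.5 UMIs (library 2) and 12070.5 UMIs (library 3), against 7663 and 7982 in base nuclei with no *Etv1* UMI. The tests of gene levels were therefore made between nuclei matched on UMI total, within 20%, in their own library. Up to 3 *Etv1* = 0 nuclei per *Etv1*+/*Rspo2*- nucleus were taken, which left 93 against 252 nuclei in library 2 and 68 against 178 in library 3. After matching, the medians were 13519 against 11918.5 UMIs and 12070.5 against 10578 UMIs, so that part of the gap in depth remained.

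Outside the gate the nuclei held genes of neurons, while the markers named for these nuclei held only in part. *Gria2*, an AMPA receptor subunit, was found in all 162 nuclei, and *Camk2a*, a kinase of excitatory neurons, in 97.9% and 98.5% of them in libraries 2 and 3. Both genes were also common in barcodes gated as GABAergic (medians of 7646 and 7370.5 UMIs), *Gria2* in 97.8% and 98.9% and *Camk2a* in 92.0% and 87.2% of them, and so do not mark glutamatergic nuclei here. *Slc32a1*, the vesicular GABA transporter, was found in 0 of 94 nuclei (which by the same rule allows a share of up to 3.19%) and in 1 of 68, and in no more than 15% and 9.64% of GABAergic barcodes. *Neurod6*, a transcription factor of many pallial glutamatergic neurons, was found in few, with a UMI in 2 of 94 and 3 of 68 nuclei. These shares depend on depth, and barcodes gated as oligodendrocytes, which should lack most of these genes, were much shallower (medians of 2419 and 2248.5 UMIs). In them, *Gria2* was found in 40.3% and 54.1% and *Camk2a* in 16.6% and 16.2% of barcodes.

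*Scn7a*, a sodium channel family member, and *Ndst4*, an N-deacetylase and N-sulfotransferase of heparan sulfate synthesis, had been named as markers of these nuclei alongside *Etv1*. *Scn7a* (chr2:66673425-66784914) was at 21.7 and 10.5 CPM in the *Etv1*+/*Rspo2*- nuclei of libraries 2 and 3 and at 18.5 and 19.4 CPM in matched *Etv1* = 0 nuclei (CPM, counts per 1e6 UMIs, with counts summed over the nuclei of a library). Library 2 lay above its matched nuclei, library 3 below. Its log2 fold change was -0.16 ± 0.31 (SE). *Scn7a* therefore did not set these nuclei apart here, and they are named by the rule that chose them.

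*Ndst4* (chr3:125404076-125728899) was at 59.7 and 52.5 CPM in *Etv1*+/*Rspo2*- nuclei against 45.6 and 28.9 CPM in matched nuclei, a log2 fold change of 0.56 ± 0.18 that missed the threshold (adjusted p = 0.055). Both libraries were higher in *Etv1*+/*Rspo2*- nuclei and the values did not overlap, which was so for 31.4% of all genes tested here. A UMI was found in 30.9% and 30.9% of *Etv1*+/*Rspo2*- nuclei, or 16.7% and 19.4% with every nucleus thinned to 6000 UMIs, when matched *Etv1* = 0 nuclei were at 19.5% and 13.0%, so the thinned share was higher in library 3 only. *Etv1* nuclei with *Rspo2*, matched 1 to 1, held *Ndst4* at 52.4 and 55.2 CPM against 57.9 and 63.1 CPM without *Rspo2* (0.13 ± 0.22, adjusted p = 0.891), and *Scn7a* at 8.17 and 3.45 CPM against 18.3 and 14.4 CPM (1.32 ± 0.52, adjusted p = 0.205). Oligodendrocyte barcodes held *Ndst4* at 47.6 and 46.2 CPM, close to the level in *Etv1*+/*Rspo2*- nuclei, with a UMI in 9.39% and 7.77% of barcodes. Both markers had been picked from these same data, so neither is independent support for the group.

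**Figure D1:**
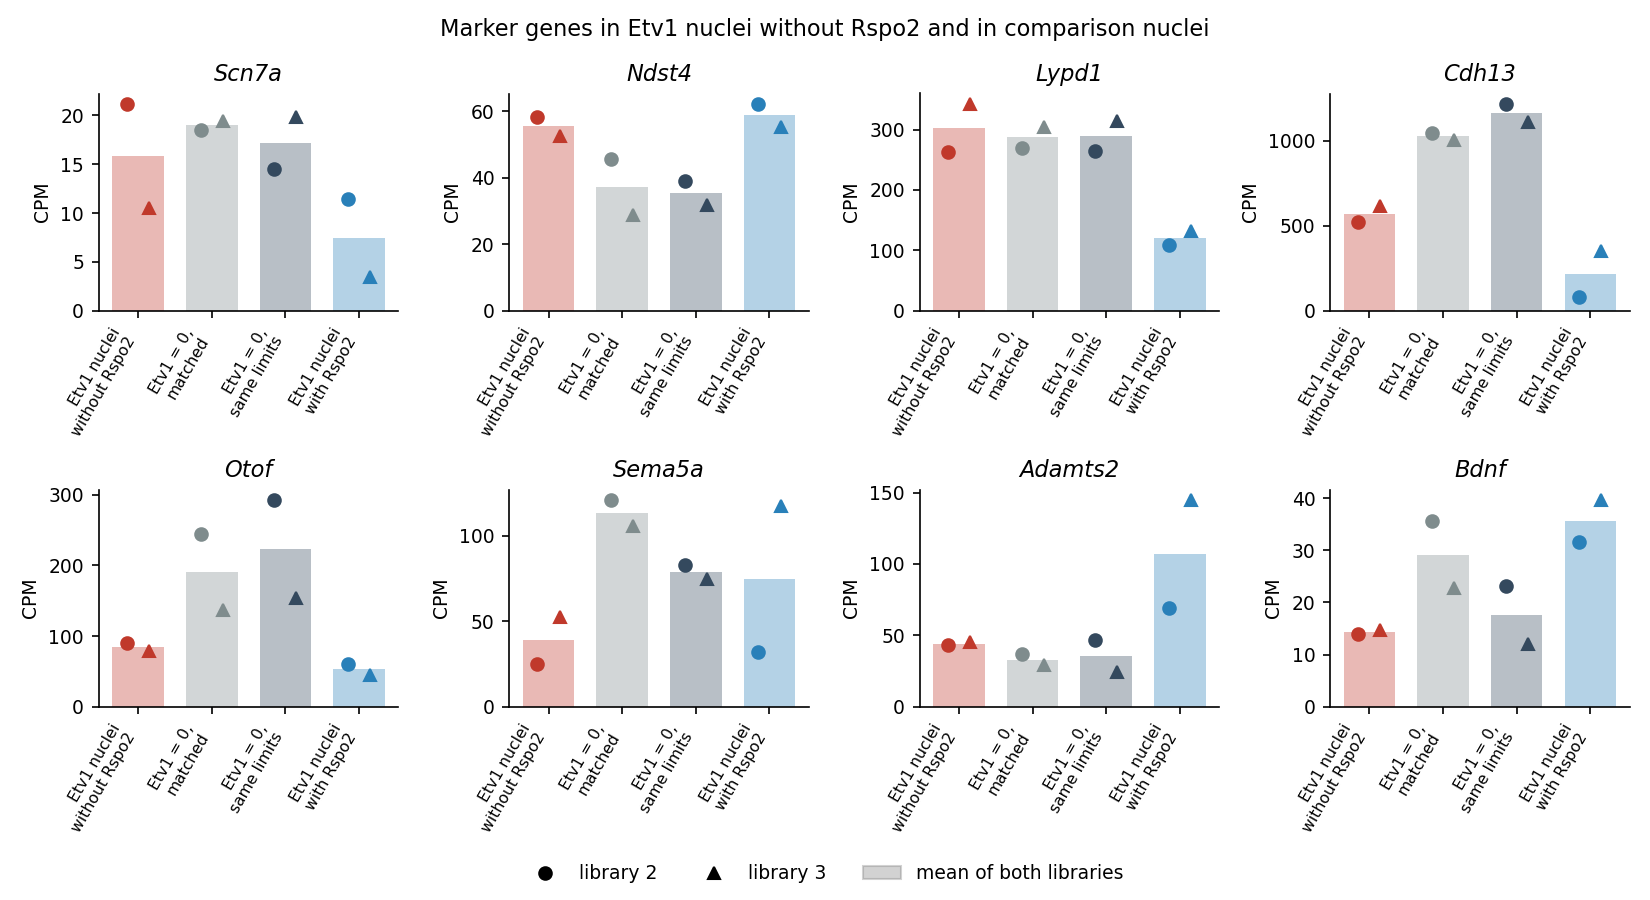
CPM (y axis, linear, from 0) of the 2 named markers and 6 marker genes of the study in *Etv1*+/*Rspo2*- nuclei, matched *Etv1* = 0 nuclei, matched *Etv1* = 0 nuclei under the same limits, and all *Etv1* nuclei with *Rspo2*. Points are libraries 2 and 3 and bars their means. *Scn7a* is no higher than in *Etv1* = 0 nuclei in library 3. *Lypd1* CPM is higher than in nuclei with *Rspo2* in both libraries and overlaps with that in *Etv1* = 0 nuclei.

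Marker levels also differed by the amount of *Etv1* itself. The plot of markers by *Etv1* UMIs covers base nuclei within the limits on *Rspo2*, *Rorb*, *Grik1* and *Pde11a*. Just outside the threshold, nuclei with 1 *Etv1* UMI (69 and 42) held *Cdh13* at 675 and 960.4 CPM, *Otof* at 169 and 113 CPM and *Ndst4* at 31.3 and 35.3 CPM. Just inside it, nuclei with 2 *Etv1* UMIs (33 and 22) held *Cdh13* at 728 and 1012 CPM, *Otof* at 83.8 and 69.3 CPM and *Ndst4* at 38.9 and 40.8 CPM. Nuclei with 4 or more *Etv1* UMIs (41 and 28) held *Cdh13*, which encodes the GPI-anchored T-cadherin, at 311 and 372 CPM and *Ndst4* at 79.0 and 66.5 CPM. The order was not even, since nuclei with 3 *Etv1* UMIs (20 and 18) held *Cdh13* at 901 and 696 CPM and *Ndst4* at 19.8 and 35.5 CPM. The lowest *Cdh13* and highest *Ndst4* levels were in the nuclei with most *Etv1*. Median depth also differed between these classes, from 5591 and 6716 UMIs at 0 *Etv1* UMIs to 16381 and 16749.5 at 4 or more, and its part in the levels was not tested.

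**Figure D2:**
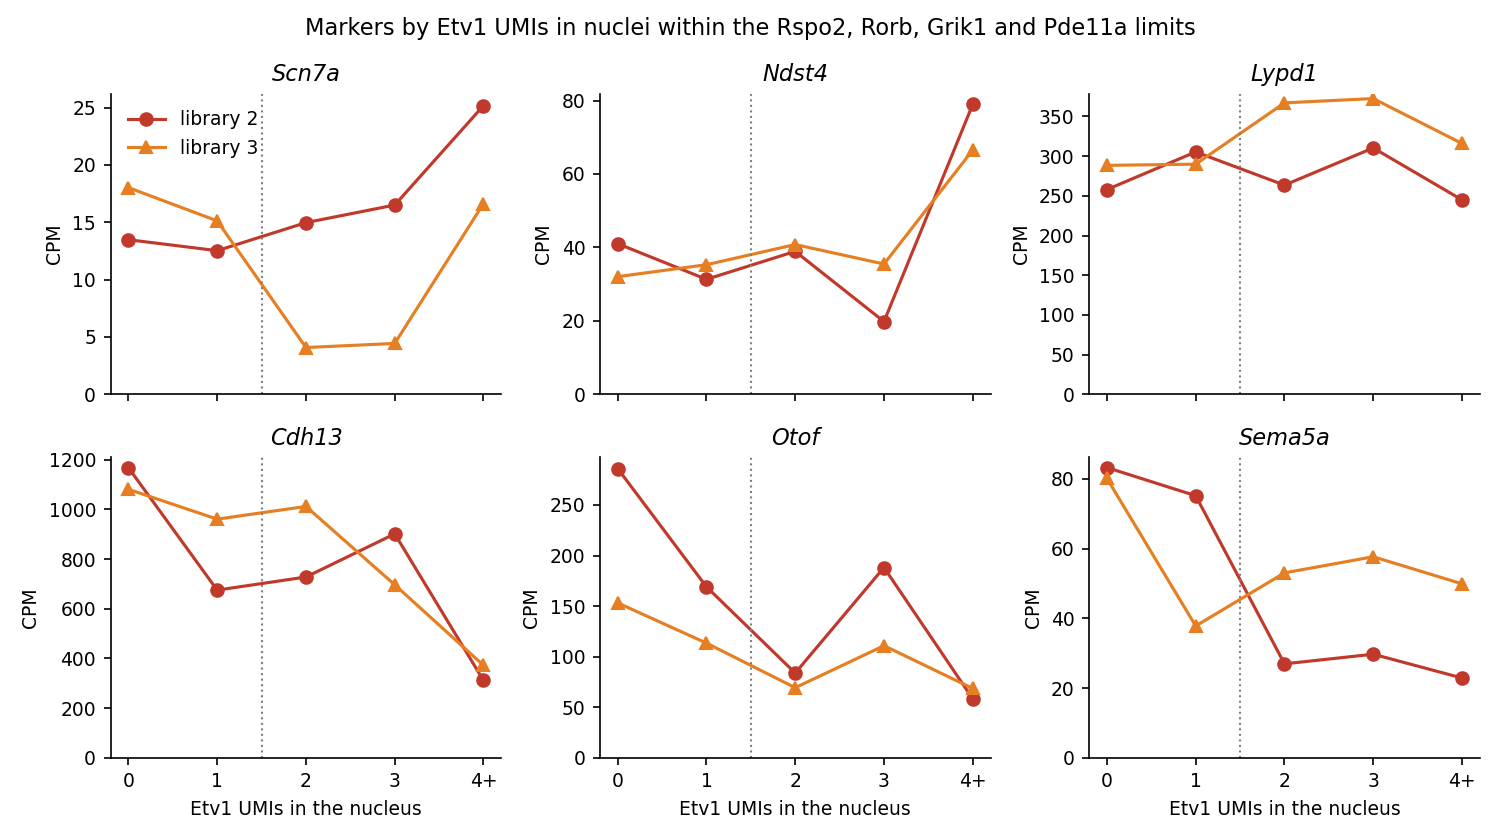
CPM (y axis, linear, from 0) of 6 markers in base nuclei within the limits, by the number of *Etv1* UMIs in a nucleus (x axis). Each line is a library, and the dotted line marks the threshold between 1 and 2 UMIs. *Cdh13* is lowest and *Ndst4* highest at 4 or more *Etv1* UMIs in both libraries.

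The main comparison asked which other genes went with *Etv1* among nuclei of similar, though not equal, depth. UMIs were summed per library and arm and tested with edgeR's quasi-likelihood test, the library being a block, with Benjamini-Hochberg adjustment over 9833 genes and a threshold of 0.05. In *Etv1*+/*Rspo2*- nuclei 220 genes were higher (2.24% of those tested) and 333 lower (3.39%), 553 in all (5.62%). The values of the arms did not overlap for 3084 of the genes tested (31.4%). Without the block, 24 were higher and 107 lower, and DESeq2 with its own size factors called 26 and 80. In library 2 every called gene moved in the direction of its call, and in library 3 there were 2 exceptions among the higher and 1 among the lower genes. *Etv1* itself was at 277.6 and 296 CPM against 0 by construction, and no gene of the gate was tested. Fold changes below are edgeR's, on the log2 scale, with their SE after the ± sign.

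The *Etv1* = 0 arm still held nuclei with *Rspo2*, *Rorb*, *Grik1* and *Pde11a*, which the gate kept out of the *Etv1*+/*Rspo2*- nuclei. *Etv1* = 0 nuclei under the same limits (82 against 148 nuclei in library 2, 58 against 93 in library 3) gave 161 higher (2.03%) and 232 lower genes (2.92%) of 7933 tested, 4.95% in all, at medians of 11582.5 against 8897.5 UMIs in library 2. Of the 220 higher genes above, 207 were tested again and 119 called again. Of the 333 lower genes, 302 were tested and 203 called. The count of genes called in opposite directions was 0.

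The largest rises are given gene by gene, and a shared function among them was not tested. *Vgll3* (chr16:65815257-65866368), a cofactor of TEAD transcription factors, was at 33.3 and 13.7 CPM in *Etv1*+/*Rspo2*- nuclei and at 4.12 and 1.90 CPM in matched nuclei, a log2 fold change of 2.95 ± 0.39 (adjusted p = 3.48e-08). A UMI was found in 18 and 7 of the nuclei. *Tanc1* (chr2:59612042-59846149), a postsynaptic scaffold protein, was at 148 and 156 CPM against 39.1 and 43.1 CPM and rose by 1.89 ± 0.15 (adjusted p = 7.12e-16), with a UMI in 59 and 38 of the 93 and 68 nuclei. *Grik3* (chr4:125490700-125714173), a kainate receptor subunit, was at 221 and 215 CPM against 82.9 and 70.2 CPM and rose by 1.5 ± 0.13 (adjusted p = 1.95e-14). For these 3 genes, as for 31.4% of all genes, the values of the arms did not overlap.

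*Fam20a*, a pseudokinase of the secretory pathway, was at 64.5 and 36.8 CPM against 12.6 and 12.8 CPM (log2 2.04 ± 0.25). *Rph3al*, an effector of Rab proteins in exocytosis, was at 83.5 and 60.9 CPM against 21.5 and 20.9 CPM (1.80 ± 0.19), and *Galnt9*, a brain enzyme that starts O-glycosylation, at 179 and 108 CPM against 63.8 and 40.8 CPM (1.46 ± 0.14). *Tfap2d*, a transcription factor of the AP-2 family, was at 31.9 and 41.0 CPM against 13.2 and 15.6 CPM (1.32 ± 0.26). *Gpc4*, a glypican that carries heparan sulfate, rose by 1.47 ± 0.25, but its call was lost under the same limits (0.77 ± 0.30, adjusted p = 0.157), as was that of the copine *Cpne2* (1.29, then 1.05 with an adjusted p of 0.065). *Colec12*, a scavenger receptor, *Jcad*, a protein of cell junctions, and the long non-coding RNA *Mirt1* rose by 1.73, 1.54 and 1.78, and each kept its call under the same limits. Under these limits and without nuclei above a limit on lists of other-cell markers, described below, *Colec12* (1.14, adjusted p = 0.0721) and *Tfap2d* (1.0, adjusted p = 0.152) were not called.

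Large rises were also found in genes best known from other cells. *Ptprc* (chr1:138062861-138175708), which encodes the leukocyte phosphatase CD45, was at 19.0 and 41.0 CPM against 5.29 and 0.948 CPM, a log2 fold change of 2.93 ± 0.40 (adjusted p = 9.25e-08). Its UMIs were spread over 14 and 19 nuclei with at most 5 and 6 in a single nucleus. The ratio differed between libraries, at 1.83 in library 2 alone and 5.13 in library 3 alone on the log2 scale. *Prr5l*, a partner of mTORC2 that is abundant in oligodendrocytes, was at 12.9 and 65.1 CPM against 8.53 and 13.7 CPM (1.58 ± 0.30). Its rise was larger in library 3, with up to 17 UMIs in a single nucleus, and the arms overlapped across libraries.

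Markers of other cell types were therefore summed in both arms. The 10 oligodendrocyte genes, with *Mbp* the most abundant and none at 0, summed to 162 and 408 CPM in *Etv1*+/*Rspo2*- nuclei against 153 and 147 CPM in matched nuclei, and 3 of 6 tested, among them *Prr5l* and *St18*, were higher. The 9 microglia genes, led by *P2ry12* and with *Tmem119* and *C1qa* at 0, summed to 20.4 and 71.5 CPM against 38.8 and 33.7 CPM. Library 3 was thus the library with more of both. When nuclei with at least 0.1% of their UMIs in the oligodendrocyte list were left out of both arms (3 of 94 and 5 of 68 *Etv1*+/*Rspo2*- nuclei), *Prr5l* was no longer tested, *St18* was not called and turned to -0.75 (adjusted p = 0.667), *Ptprc* was at 2.85 (adjusted p = 1.69e-10) and 242 genes were higher and 364 lower.

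The matched *Etv1* = 0 nuclei, in turn, held higher sums of the GABAergic and oligodendrocyte precursor lists, each carried by 1 gene. The 18 GABAergic genes summed to 92.3 and 75.7 CPM in *Etv1*+/*Rspo2*- nuclei against 499 and 695 CPM, nearly all of it *Adarb2*, without which they were at 17.6 and 15.8 against 14.7 and 39.3 CPM. In *Etv1*+/*Rspo2*- nuclei 10 of the 18, among them *Gad1* and *Gad2* by construction and *Sst*, *Pvalb* and *Lhx6*, were at 0. The 8 precursor genes summed to 276 and 257 against 409 and 617 CPM, and without *Lhfpl3* to 31.2 and 12.6 against 16.5 and 21.3 CPM, with *Olig1*, *Olig2* and *C1ql1* at 0. The 10 astrocyte genes, led by *Slc1a2*, summed to 206 and 229 against 346 and 475 CPM, the 10 vascular genes, led by *Dcn* and with *Flt1*, *Cldn5* and *Vtn* at 0, to 49.6 and 45.2 against 42.0 and 28.9 CPM, and the 6 ependymal genes, led by *Cfap299* and with *Foxj1* and *Tmem212* at 0, to 9.50 and 13.7 against 30.3 and 24.2 CPM. Without *Dcn* the vascular genes were at 31.9 and 26.3 against 33.8 and 24.7 CPM. Of tested genes in these lists, *Adarb2*, *Lhfpl3* and *Slc4a4* were lower and *Dcn* higher.

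Leaving out every nucleus at or above 0.1% for any of these 7 lists removed 10 of 94 and 8 of 68 *Etv1*+/*Rspo2*- nuclei, but 80 of 252 and 68 of 178 matched nuclei. Of the matched nuclei, 41 and 36 met the limit for the GABAergic list and 36 and 39 for the precursor list. Those lists were carried by *Adarb2* and *Lhfpl3*. The nuclei left out are called other-cell nuclei below, but whether they were other cells or glutamatergic nuclei with these genes was not tested. With the arms matched anew, 212 genes were higher and 260 lower, 149 and 206 of which had been called before. *Vgll3* (2.45), *Ptprc* (2.17), *Tanc1* (1.48) and *Grik3* (1.6) kept their calls. *Ndst4* then passed the test as well, at 1.06 (adjusted p = 7.87e-05), while *Scn7a* was at 0.16 (adjusted p = 0.938). *Dcn* (0.97) and *Lhfpl3* (0.20), which are on the lists, lost their calls, as did genes named in later paragraphs. With the same limits as well, 105 genes were higher and 142 lower, 80 and 117 of which had been called in the main comparison. There *Tanc1* (1.13), *Rph3al* (1.15), *Nfib* (0.44), *Cdh12* (-1.07), *Npsr1* (-1.36), *Olfm3* (-2.07) and *Adarb2* (-0.91) kept their calls at smaller values.

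The largest falls are likewise given gene by gene, without a test of shared function. *Olfm3* (chr3:114904078-115125722), a secreted olfactomedin protein of synapses, was at 18.3 and 15.8 CPM in *Etv1*+/*Rspo2*- nuclei and at 134 and 186 CPM in matched nuclei, a log2 fold change of -3.16 ± 0.19 (adjusted p = 1.21e-20). *Adarb2* (chr13:8202866-8768747), a relative of the RNA-editing deaminases without known editing activity, was at 74.7 and 59.9 CPM against 484 and 656 CPM (-3.02 ± 0.14, adjusted p = 1.98e-27). Neither gene overlapped between arms, as for 31.4% of all genes. Without nuclei of the other-cell lists, one of which holds *Adarb2* itself, *Adarb2* was still lower but by less (-1.11, adjusted p = 5.46e-05), as was *Olfm3* (-2.28).

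*Npsr1* (chr9:24097996-24316398), the receptor for neuropeptide S, was at 25.1 and 27.3 CPM against 119.9 and 148 CPM (-2.33 ± 0.18, adjusted p = 3.56e-16). Only 10 and 5 *Etv1*+/*Rspo2*- nuclei held a UMI, yet single nuclei held up to 10 and 12. *Kctd8*, an auxiliary subunit of GABA-B receptors, was at 13.6 and 17.9 CPM against 71.4 and 102 CPM (-2.45 ± 0.22). *Nxph1*, a neurexophilin that binds alpha-neurexins, was at 31.2 and 8.41 CPM against 111 and 289.6 CPM (-2.99 ± 0.24), and the receptor tyrosine kinase gene *Alk* at 6.79 and 14.7 CPM against 53.8 and 109.5 CPM (-2.93 ± 0.24). Each of the 4 genes was lower in both libraries. *Meis1*, a homeodomain factor (-3.05), and *Sema5b*, a semaphorin (-2.80), fell from levels under 60 CPM.

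Of the other large falls, *Vwa5b1*, a protein with a von Willebrand factor A domain, left 5 UMIs in the *Etv1*+/*Rspo2*- nuclei of library 2 and 0 in library 3, against 40.3 and 23.2 CPM in matched nuclei. *Pappa2*, a protease of IGF-binding proteins (-3.12), *Rims3*, of the presynaptic active zone (-3.01), and *Ptchd4*, a patched-domain protein (-2.90), also fell. So did *Tmem132c* (-2.68), *Tcerg1l* (-2.36) and *Nhs*, a regulator of actin (-2.34). All 15 falls kept their calls under the same limits. Without nuclei of the other-cell lists, *Nhs* lost its call (-0.73, adjusted p = 0.209), *Alk* was at -1.54 and *Vwa5b1* was no longer tested. With the same limits as well, *Alk* (-0.76, adjusted p = 0.627) and *Tcerg1l* (-0.81, adjusted p = 0.686) lost their calls too, and *Meis1*, *Sema5b*, *Pappa2*, *Rims3* and *Tmem132c* were not tested.

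**Figure D3:**
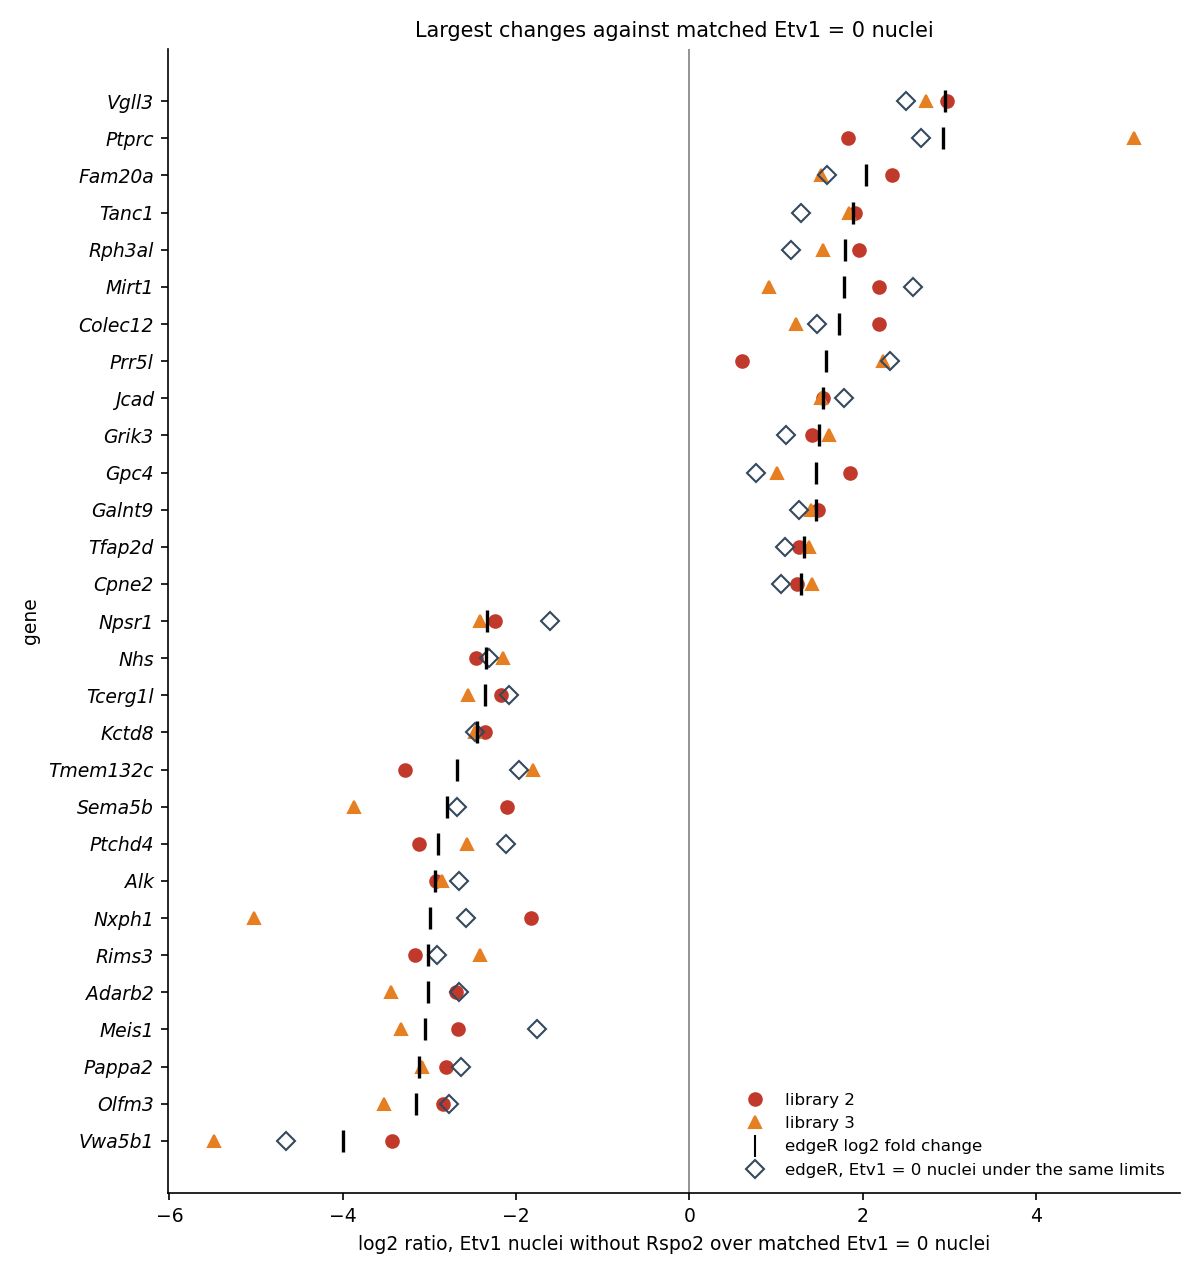
Log2 ratio (x axis) of *Etv1*+/*Rspo2*- nuclei over matched *Etv1* = 0 nuclei for 14 of the 15 genes that rose and the 15 that fell most by edgeR among called genes with at least 20 CPM in the higher arm and the same direction in both libraries. Circles and triangles are libraries 2 and 3 (0.5 UMIs added to each sum), vertical ticks the edgeR estimate and open diamonds the estimate with *Etv1* = 0 nuclei under the same limits. Of the genes shown, *Ptprc* and *Nxph1* differ most between libraries.

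Marker genes by which the study divided BLA glutamatergic neurons were mostly lower in *Etv1*+/*Rspo2*- nuclei. Of the 10, 4 belong to the gate, 4 were lower and 0 higher, against 3.39% lower and 2.24% higher over all genes, and under the same limits 3 of 6 tested were lower. This list was chosen on these samples and is not independent evidence of its direction. *Cdh13* (chr8:118283733-119324921) was at 477 and 614 CPM in *Etv1*+/*Rspo2*- nuclei against 1048 and 1005 CPM in matched nuclei (-0.93 ± 0.10, adjusted p = 1.55e-11). *Otof*, which encodes otoferlin, a calcium sensor of vesicle fusion, was at 88.9 and 78.8 CPM against 244 and 137 CPM (-1.19 ± 0.14), and *Sema5a*, a semaphorin, at 23.1 and 52.5 CPM against 121 and 106 CPM (-1.70 ± 0.19). All 3 calls held under the same limits. The neurotrophin gene *Bdnf* was at 14.3 and 14.7 CPM against 35.6 and 22.8 CPM (-1.05 ± 0.29), and lost its call under the same limits (-0.47 ± 0.41, adjusted p = 0.748) and without other-cell nuclei (-0.53, adjusted p = 0.532).

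*Lypd1*, a GPI-anchored modulator of nicotinic acetylcholine receptors, was present in most *Etv1*+/*Rspo2*- nuclei and its level did not pass the test against their matched counterparts. It was found in 75.5% and 83.8% of the nuclei (67.9% and 74.2% after thinning to 6000 UMIs, 84 and 62 nuclei), at 264 and 343 CPM against 269 and 305 CPM (0.07 ± 0.11, adjusted p = 0.905). Oligodendrocyte barcodes, which were shallower, held it in 6.63% and 9.80% of cases at 22.9 and 53.5 CPM, and in 7.14% and 47.1% of the 14 and 17 deep enough to be thinned to 6000 UMIs. *Adamts2*, a procollagen protease, was at 44.1 and 45.2 CPM against 37.0 and 28.9 CPM (0.41 ± 0.20, adjusted p = 0.346). Oligodendrocyte barcodes held *Adamts2* at 105 and 108 CPM and *Sema5a* at 270.5 and 179 CPM, above the levels in *Etv1*+/*Rspo2*- nuclei.

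*Etv1*+/*Rspo2*- nuclei without a *Lypd1* UMI numbered 23 in library 2 and 11 in library 3, and were shallower, with medians of 9080 and 6615 UMIs against 20982 and 15288.5 in nuclei with 4 or more *Lypd1* UMIs. Matching on depth left 21 and 9 pairs, each under the minimum of 30 nuclei set for a test, so none was made. In them *Cdh13* was at 637 and 591 CPM with *Lypd1* and at 318 and 407 CPM without. *Etv1* was at 292 and 289 CPM with *Lypd1* and at 367 and 445 CPM without. Both orders of CPM were the same in each library. Over all *Etv1*+/*Rspo2*- nuclei, unmatched in depth, the shares of nuclei with a *Cdh13* UMI were 76.1 and 73.7% with *Lypd1* and 60.9 and 90.9% without, in opposite orders in the 2 libraries. Within all *Etv1*+/*Rspo2*- nuclei, *Otof* was found in 66.2 and 55.8% of nuclei with a *Cdh13* UMI and in 23.1 and 25% of those without. Depth is shared by both genes, and its part was not tested.

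How unequal the *Etv1*+/*Rspo2*- nuclei were among themselves was read from the ratio of variance to mean of each gene's UMIs at 6000 UMIs per nucleus, which is 1 for counting error alone. Over 4677 genes found in at least 10% of nuclei in both libraries, the median ratio was 1.13 in library 2 and 1.10 in library 3. Ranked by the lower of both libraries, *Kcnip4*, a modulator of A-type potassium channels, came first (29.5 and 30.0), followed by the teneurin *Tenm2* (23.6 and 35.7). Both were found in nearly every nucleus. *Trpm3*, a cation channel of the TRP family (21.6 and 29.9), was found in 70.2 and 74.2% of nuclei at this depth, reaching 52 and 69 UMIs in a nucleus. The zinc-finger factor *Tshz2* (6.82 and 9.55, found in 42.9 and 50% of nuclei) and *Hs6st3*, a heparan sulfate 6-O-sulfotransferase (6.65 and 9.96, in 50 and 40.3%), were found in fewer. These 5 genes were chosen after their values were seen.

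Gene lists were read against all genes tested, of which 2.24% were higher and 3.39% lower with a median log2 fold change of -0.01. Of 21 ionotropic and metabotropic glutamate receptor genes tested, 5 were higher and 3 lower (median -0.01). *Gria1* was at 3281 and 3355 CPM against 2598 and 2616 CPM (0.35 ± 0.08) and *Gria3* at 1500.2 and 1558 CPM against 1200.3 and 1197 CPM (0.35 ± 0.08), and *Gria2* rose by 0.28, all AMPA receptor subunits, while the fourth subunit gene *Gria4* fell (707 and 795 CPM against 842 and 1121 CPM, -0.37 ± 0.09). Besides *Grik3*, the presynaptic receptor *Grm8* rose by 0.43. Another kainate subunit, *Grik4*, was at 31.9 and 25.2 CPM against 98.2 and 94.8 CPM (-1.73 ± 0.18, adjusted p = 4.00e-11). All 8 calls were made again under the same limits. Without other-cell nuclei, *Gria4* (-0.18, adjusted p = 0.372) and *Grik4* (-0.68, adjusted p = 0.0718) were not called. With the same limits as well, *Gria1* (0.19), *Gria3* (0.24) and *Gria4* (-0.13) were not called, whereas *Grik4* was (-1.43).

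Of 15 GABA receptor genes tested, 1 was higher and 2 lower (median -0.03), *Gabra2* rising by 0.35 (not called under the same limits) and *Gabrb2* (-0.48) and *Gabrg3* (-0.38) falling. Without other-cell nuclei *Gabrg3* was at -0.12 (adjusted p = 0.703) and not called. Of 17 receptors for neuromodulators, 2 were higher and 3 lower (median -0.25). *Cnr1*, the CB1 cannabinoid receptor, was at 69.9 and 50.4 CPM in *Etv1*+/*Rspo2*- nuclei against 26.5 and 26.5 CPM in matched nuclei (1.22 ± 0.19, adjusted p = 3.43e-06), and the values did not overlap, as for 31.4% of all genes. *Htr1f*, a serotonin receptor, was at 407 and 265 CPM against 245 and 247 CPM (0.45 ± 0.12). The muscarinic receptors *Chrm3* (-0.61) and *Chrm2* (-0.75) fell, and were not called under the same limits or without other-cell nuclei (-0.17 and -0.49). Of 14 peptide receptors, on a list that did not hold *Npsr1*, 1 was higher and 3 lower, and of 3 peptide and neurotrophin genes tested 2 were lower. Under the same limits 1 of 9 peptide receptors of this list was higher and 0 lower, and 1 of 3 peptide genes was lower. *Npsr1*, outside the list, kept its call there.

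Among potassium channel genes 4 of 52 were higher and 9 lower (median -0.14). *Kcnc2*, a Kv3 subunit of fast-spiking neurons, was at 26.5 and 72.5 CPM against 125 and 179 CPM (-1.72 ± 0.17, adjusted p = 1.17e-12), and *Kcnh5*, an ether-a-go-go channel, at 70.6 and 71.5 CPM against 128 and 154 CPM (-0.97 ± 0.14). *Kcng1*, a silent Kv subunit, was at 77.4 and 45.2 CPM against 36.5 and 15.2 CPM (1.23 ± 0.19), and the small-conductance channel *Kcnn2* rose by 0.57. Of 23 calcium and HCN channel genes 1 was higher and 4 lower (median -0.06), the auxiliary subunit *Cacna2d3* falling (-0.58). Of 14 genes for sodium channels and their FGF partners, the list of *Scn7a*, *Fgf12* rose (0.36) and *Fgf13* fell (-0.56). These last 3 calls and those of *Kcnc2*, *Kcnh5*, *Kcng1* and *Kcnn2* were made again under the same limits. There 1 of 14 sodium channel and FGF genes was higher and 3 were lower. Without other-cell nuclei *Kcnh5* was at -0.56, and with both settings joined *Fgf13* was not called (-0.53, adjusted p = 0.0601).

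Heparan sulfate genes, the list of *Ndst4*, moved both ways, with 3 of 28 higher and 5 lower (median -0.02). *Ndst3*, of the same enzyme family as *Ndst4*, was at 306 and 245 CPM against 139.6 and 169.7 CPM (0.86 ± 0.12, adjusted p = 2.27e-07), and *Xylt1*, which starts the chains, at 528 and 393 CPM against 256 and 284 CPM (0.77 ± 0.11). The sulfotransferase gene *Hs3st5* was at 48.2 and 51.5 CPM against 105 and 104 CPM (-1.07 ± 0.16) and the glypican *Gpc6* at 549 and 587 CPM against 777 and 904 CPM (-0.56 ± 0.09). All 4 were called again under the same limits, but with other-cell nuclei left out as well *Hs3st5* (-0.63, adjusted p = 0.16) and *Gpc6* (-0.28, adjusted p = 0.215) were not. Of 26 matrix genes 1 was higher and 7 lower (median -0.21), among them the protease *Adamts18* (21 and 26.3 CPM against 87.3 and 59.7 CPM, -1.70 ± 0.21), *Reln*, the secreted reelin (-1.63), and *Col23a1* (-1.22), and under the same limits 2 of 24 were higher and 4 lower. The call of *Reln* was lost under the same limits, where its value was 0.50 (adjusted p = 0.66).

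Of 22 cadherin genes, 2 were higher and 8 lower (median -0.25). *Cdh12* was at 37.3 and 50.4 CPM against 158 and 169.7 CPM (-1.93 ± 0.16, adjusted p = 3.38e-15) and *Cdh6* at 14.9 and 13.7 CPM against 44.1 and 57.8 CPM (-1.78 ± 0.25), while *Cdh8* was at 798 and 574 CPM against 369 and 521 CPM (0.65 ± 0.12). *Cdh23* left 1 UMI against 97, a CPM ratio of 0.0234 (exact 95% counting interval 0.000587 to 0.134). Of 44 axon guidance genes 1 was higher and 7 lower (median -0.06), the netrin receptor *Unc5d* being at 497 and 607 CPM against 931 and 1262 CPM (-0.98 ± 0.09, adjusted p = 6.11e-13) and *Slit2* rising (0.37). Under the same limits 3 of 41 guidance genes were higher (*Efna5*, *Slit2* and *Dcc*) and 4 lower, and cadherins gave 1 higher and 6 lower of 22. Of 41 synaptic adhesion genes 5 were higher and 8 lower (median -0.02). *Ptprt*, a receptor phosphatase, was at 81.5 and 261 CPM against 367 and 558 CPM (-1.58 ± 0.13) and *Nrxn3*, a neurexin, fell (-0.60), whereas *Lrrtm4*, a postsynaptic ligand of presynaptic partners, rose by 0.50. Under the same limits 2 of 41 adhesion genes were higher and 5 lower.

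Transcription factors of the pallium held most calls in number, with 7 of 35 higher and 10 lower (median -0.12). *Nfib*, a nuclear factor I protein, was at 587 and 578 CPM against 252 and 343 CPM (0.99 ± 0.11, adjusted p = 4.00e-11), and *Sox5*, of the SoxD family, at 555 and 489 CPM against 383 and 251 CPM (0.73 ± 0.10). *Fezf2*, a zinc-finger factor, was low but higher (19.7 and 10.5 CPM against 7.94 and 3.79 CPM, 1.35 ± 0.38), and *Bcl11b*, another zinc-finger factor, rose by 0.37. The homeodomain factors *Cux1* and *Cux2* and the chromatin organizer *Satb1* fell, *Cux1* from 95 and 149 CPM to 34.6 and 31.5 CPM (-1.80 ± 0.18, adjusted p = 3.27e-12), as did *Cux2* (-0.51) and *Satb1* (-1.09). *Pbx3* (-1.66 ± 0.16) and *Foxp2* (-1.72 ± 0.22) fell as well. Under the same limits, 4 of 32 genes tested were higher and 8 lower, *Bcl11b* (0.08), *Cux2* (-0.41) and *Satb1* (-0.14) lost their calls and *Fezf2* was too low to be tested. Without other-cell nuclei *Fezf2* (1.0, adjusted p = 0.152) and *Bcl11b* (0.05, adjusted p = 0.938) were not called, and *Pbx3* (-0.90) and *Foxp2* (-1.09) kept their calls at smaller values.

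Of 16 tested relatives of *Etv1* and feedback genes of ERK signalling, only *Elf1*, another ETS factor, was called, at 8.82 and 14.7 CPM against 1.76 and 4.74 CPM (1.91 ± 0.50, adjusted p = 0.00814), and it was too low to be tested under the same limits. *Etv5*, of the same subgroup as *Etv1*, was at 41.4 and 35.7 CPM against 32.9 and 18.5 CPM (0.55 ± 0.23, adjusted p = 0.188). Of 8 immediate early genes, which report recent activity, the only call was *Bdnf*, given above. WNT and R-spondin genes gave 0 calls among 8 tested (median -0.12). Under the same limits, *Nr4a3* (1.21) of 6 immediate early genes and *Rspo3* (1.0) of 6 WNT and R-spondin genes were called higher.

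**Figure D4:**
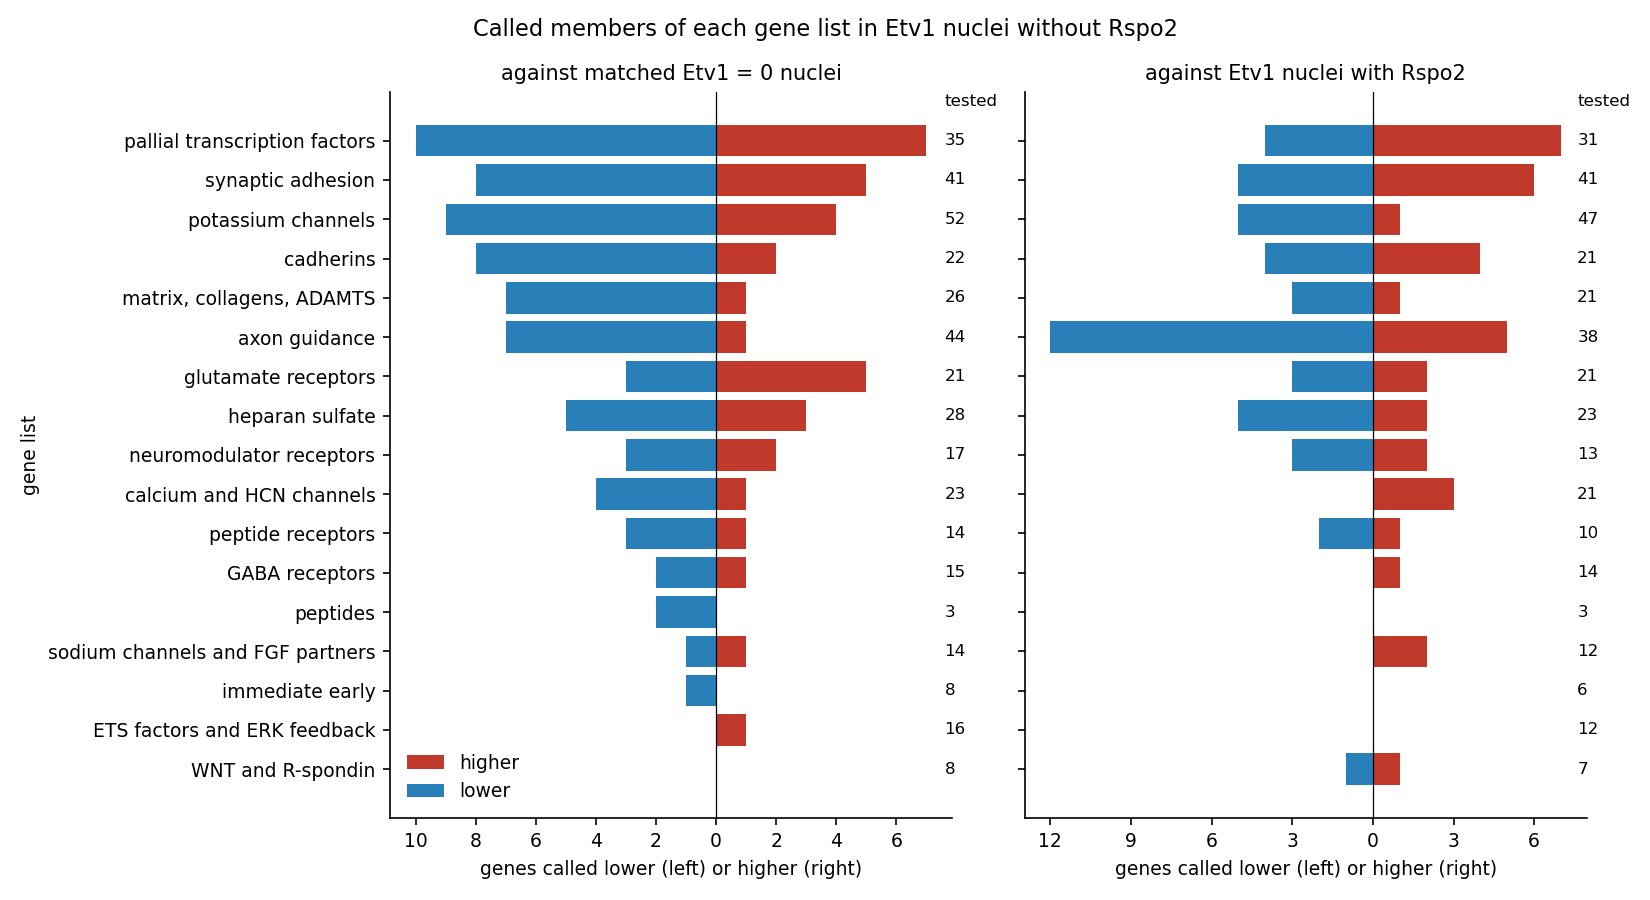
Number of genes called higher (right, red) or lower (left, blue) in *Etv1*+/*Rspo2*- nuclei for 17 gene lists, against matched *Etv1* = 0 nuclei (left panel) and against *Etv1* nuclei with *Rspo2* (right panel), with the number tested at the right of each panel. Most lists hold more lower than higher genes on the left, as do all genes tested there (333 lower, 220 higher, not drawn). Axon guidance holds the most lower genes on the right.

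*Etv1* nuclei with *Rspo2* were the most similar nuclei by the gate, since they differ from *Etv1*+/*Rspo2*- nuclei only in holding at least 1 *Rspo2* UMI. There were 78 in library 2 and 30 in library 3, again deeper (medians of 20089.5 and 18243.5 UMIs). Matching 1 to 1 left 68 and 30 pairs, at medians of 17553.5 against 19259.5 UMIs and 17593 against 18243.5 UMIs. *Etv1* was at 264 and 276 CPM in *Etv1*+/*Rspo2*- nuclei and at 284 and 286 CPM in those with *Rspo2*. Of 7743 genes tested, 172 (2.22%) were higher in *Etv1*+/*Rspo2*- nuclei and 186 (2.4%) lower, 4.62% in all. The values of the arms did not overlap for 2732 of the genes tested (35.3%). All called genes moved the same way in both libraries. Without the block 69 were higher and 75 lower, and DESeq2 called 47 and 52. This comparison uses the same *Etv1*+/*Rspo2*- nuclei as the one above.

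The largest fall was that of *Npsr1*, at 19.8 and 21.6 CPM in *Etv1*+/*Rspo2*- nuclei and 460.2 and 321 CPM in nuclei with *Rspo2* (-4.35 ± 0.22, adjusted p = 8.10e-12). It was found in 8 and 1 of the 68 and 30 *Etv1*+/*Rspo2*- nuclei and in 29 and 14 of those with *Rspo2*. *Dlc1* (chr8:36567751-36953143), a GTPase-activating protein, was at 101 and 79.3 CPM against 559.6 and 493 CPM (-2.56 ± 0.16, adjusted p = 2.88e-10). *Sema3e* (chr5:14025276-14256689), a secreted semaphorin, was at 19.0 CPM in library 2 and 0 in library 3 (30 nuclei) against 150.5 and 93.1 CPM (-3.39 ± 0.32). For these 3 genes both libraries were far lower without *Rspo2*.

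*Frem1*, a protein of the extracellular matrix, was at 17.5 and 16.2 CPM against 96.0 and 75.9 CPM (-2.41 ± 0.26), and the fibrillar collagen gene *Col5a2* at 7.62 and 3.61 CPM against 40.8 and 41.4 CPM (-2.70 ± 0.40). *Grm4*, a presynaptic metabotropic glutamate receptor (-2.75), *Blnk*, an adaptor known from B cells (-2.40), and *Vav3*, an exchange factor for small GTPases (-2.32), fell too. For these 5 genes, as for 35.3% of all genes, the values of the arms did not overlap.

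The 8 largest rises over nuclei with *Rspo2* were in genes of low level, while abundant genes were also called higher, as given in later paragraphs. *Dchs2*, a large cadherin, was at 33.5 and 64.9 CPM against 3.40 and 13.8 CPM (2.68 ± 0.39, adjusted p = 8.21e-05), with a UMI in 27 and 10 nuclei. *Vgll3* was at 41.1 and 12.6 CPM against 6.81 and 1.72 CPM (2.57 ± 0.45), in 17 and 4 nuclei. *Col12a1*, a collagen that associates with fibrils, left 42 UMIs against 2, a CPM ratio of 23.0 (exact 95% counting interval 5.99 to 196). It was, in contrast, lower than in matched *Etv1* = 0 nuclei (22.4 and 16.8 CPM against 52.6 and 19.9 CPM, -0.93), though with overlapping arms and not under the same limits (-0.59, adjusted p = 0.506).

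*Unc13c*, of the family that primes synaptic vesicles, was at 18.3 and 108 CPM against 2.72 and 1.72 CPM, but 57 of its UMIs in library 3 came from a single nucleus and only 11 and 3 nuclei held any. *Abi3bp*, a matrix protein, had 34 UMIs in a single nucleus of library 2, and *Pld5*, of the phospholipase D family, had 23 and 27 UMIs in single nuclei. These 3 rises (4.03, 3.30 and 2.99) thus rested on few nuclei. *Dcn*, the matrix proteoglycan decorin, which is on the vascular list, was at 24.4 and 16.2 CPM against 2.72 and 0 CPM (3.42 ± 0.66), in 15 and 5 nuclei, and the endothelin-converting enzyme relative *Ece2* at 31.2 and 12.6 CPM against 2.72 and 5.17 CPM (2.78 ± 0.56).

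**Figure D5:**
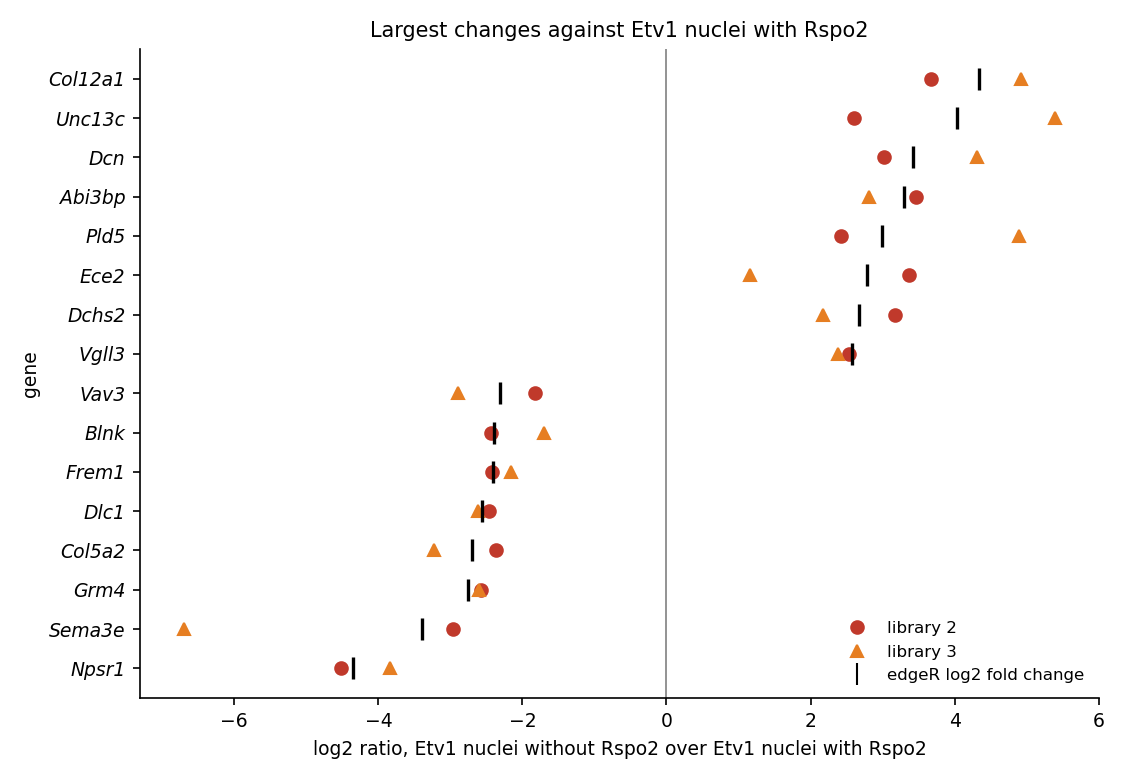
Log2 ratio (x axis) of *Etv1*+/*Rspo2*- nuclei over depth-matched *Etv1* nuclei with *Rspo2* for the 8 genes that rose and the 8 that fell most under the same naming rule. Circles and triangles are libraries 2 and 3 (0.5 UMIs added to each sum) and vertical ticks the edgeR estimate. *Npsr1* is lowest by the edgeR estimate, and *Sema3e* is at 0 UMIs in the *Etv1*+/*Rspo2*- nuclei of library 3.

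Among markers of the study, *Lypd1* and *Cdh13* were higher without *Rspo2* and *Adamts2* and *Sema5a* lower. *Lypd1* was at 267 and 379 CPM in *Etv1*+/*Rspo2*- nuclei against 121 and 133 CPM (1.27 ± 0.16, adjusted p = 1.27e-05), and *Cdh13* at 519 and 634 CPM against 81.7 and 350.1 CPM (1.71 ± 0.24, adjusted p = 4.60e-05). The ratio of *Cdh13* was 2.66 in library 2 alone and 0.86 in library 3 alone (log2). *Adamts2* was at 38.1 and 43.3 CPM against 76.3 and 145 CPM (-1.33 ± 0.22, adjusted p = 3.59e-04) and *Sema5a* at 26.7 and 52.3 CPM against 38.8 and 117 CPM (-0.88 ± 0.25, adjusted p = 0.0388), where the arms overlapped across libraries. *Bdnf* was at 16.0 and 21.6 CPM against 31.3 and 39.7 CPM (-0.96 ± 0.33, adjusted p = 0.119), and was called lower without other-cell nuclei (-1.26, adjusted p = 0.0257).

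Axon guidance held the most calls of any list in this comparison, with 5 of 38 genes higher and 12 lower (median -0.07). Over all genes tested, 2.22% were higher and 2.4% lower, with a median of 0.01. *Plxna4*, a semaphorin receptor, was at 517 and 523 CPM against 1002 and 1128 CPM (-1.06 ± 0.12, adjusted p = 2.41e-06), and *Slit2*, a ligand of Robo receptors, at 299 and 269 CPM against 599.8 and 598 CPM (-1.10 ± 0.13). *Sema6d* (-1.30) and the netrin receptor *Dcc* (-0.67) fell. In the other direction, *Robo1* was at 1263 and 1228 CPM against 592 and 811 CPM (0.83 ± 0.12) and the ephrin receptor *Epha4* at 276 and 339 CPM against 150.5 and 136 CPM (1.02 ± 0.16). The ligand *Slit2* was thus lower and the receptor *Robo1* higher in *Etv1*+/*Rspo2*- nuclei.

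Some receptor genes also differed from nuclei with *Rspo2*. Of 13 neuromodulator receptors tested 2 were higher and 3 lower (median -0.23), against 2.22% higher and 2.4% lower over all genes. The serotonin receptor *Htr2c* was at 536 and 593 CPM against 281 and 335 CPM (0.85 ± 0.13) and *Chrm3* at 200.3 and 279 CPM against 56.5 and 176 CPM (1.23 ± 0.20), whereas *Htr1f* (-0.88), *Htr4* (-1.18) and *Chrm2* (-1.32) fell. Of 10 peptide receptors on the list, which did not hold *Npsr1*, 1 was higher and 2 lower, the mu opioid receptor *Oprm1* rising (51.8 and 61.3 CPM against 23.8 and 32.8 CPM, 1.0 ± 0.27) and the kappa receptor *Oprk1* (9.90 and 1.80 CPM against 34.0 and 36.2 CPM, -2.27 ± 0.43) and the delta receptor *Oprd1* (-1.23) falling. Of 21 glutamate receptors 2 were higher and 3 lower (median -0.14), with *Grik2* (0.57) up and *Grm8* (-0.92) and *Grik3* (-0.61) down. *Grik3* and *Htr1f* in *Etv1*+/*Rspo2*- nuclei thus lay below nuclei with *Rspo2* and above *Etv1* = 0 nuclei, although the call of *Grik3* against nuclei with *Rspo2* was lost without oligodendrocyte-marker nuclei (-0.53, adjusted p = 0.0671). Without other-cell nuclei it was called (-0.57, adjusted p = 0.0456).

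Of 31 pallial transcription factors 7 were higher and 4 lower (median 0.18). This and the next lists stand against 2.22% higher and 2.4% lower over all genes, so counts of 1 gene carry little. *Zbtb20*, a zinc-finger repressor, was at 186 and 214 CPM against 49.0 and 75.9 CPM (1.72 ± 0.19, adjusted p = 1.59e-06) and *Meis2*, a homeodomain factor, at 271 and 290.2 CPM against 71.5 and 126 CPM (1.58 ± 0.18), while *Satb1* (-1.68) and *Lmo4* (-1.11) were lower. Heparan sulfate genes were lower in 5 of 23 cases and higher in 2 (median -0.15), *Hs3st2* being at 63.2 and 46.9 CPM against 166 and 228 CPM (-1.74 ± 0.20). Cadherins split evenly, 4 of 21 each way, with *Cdh9* at 254 and 301 CPM against 710.1 and 904 CPM (-1.56 ± 0.13) and *Cdh18* at 628 and 831 CPM against 353 and 426 CPM (0.86 ± 0.13). Of 47 potassium channel genes 1 was higher and 5 lower, *Kcnq5* falling (-0.75), and of 21 calcium and HCN channel genes 3 were higher and 0 lower. Of 41 synaptic adhesion genes 6 were higher and 5 lower, of 21 matrix genes 1 and 3, of 12 sodium channel and FGF genes 2 and 0, of 14 GABA receptors 1 and 0, and of 7 WNT and R-spondin genes 1 and 1. Calls were 0 among 12 ETS and ERK feedback genes, 6 immediate early genes and 3 peptide genes.

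Markers of other cell types were summed in these arms too. The oligodendrocyte list summed to 169 and 186 CPM in *Etv1*+/*Rspo2*- nuclei against 87.8 and 98.3 CPM, the precursor list to 273 and 279 against 103 and 169 CPM (24.4 and 10.8 against 10.9 and 10.3 CPM without *Lhfpl3*, with *Olig1*, *Olig2*, *Sox10* and *C1ql1* at 0) and the GABAergic list to 71.6 and 48.7 against 25.9 and 84.5 CPM. Of their tested genes 2 of 4 in the oligodendrocyte list, *St18* among them, and *Lhfpl3* were higher. The astrocyte list summed to 193 and 211 against 209 and 190 CPM, the microglia list to 20.6 and 61.3 against 24.5 and 22.4, the vascular list to 51.0 and 41.5 against 31.3 and 34.5, and the ependymal list to 9.90 and 23.4 against 41.5 and 46.6. Without *Slc1a2*, a gene of the gate, the astrocyte genes were at 86.1 and 130 against 38.1 and 19.0 CPM. The vascular genes without *Dcn* were at 26.7 and 25.2 against 28.6 and 34.5 CPM. The part of these lists in the calls was not tested further than by leaving such nuclei out. In these lists, *Slc4a4* and *Dcn* were higher and *Cfap299* lower. Without nuclei at or above 0.1% in any list, 187 genes were higher and 198 lower. *Npsr1* (-4.24), *Lypd1* (1.30), *Cdh13* (2.06) and *Dcn* (3.84) kept their calls, as did *Meis2* at 2.45, and *St18* was not tested.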

How the data were processed

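The authors dissected the BLA, isolated nuclei, made 10x 3' libraries and aligned the reads with Cell Ranger 7.0.1 to mm10. The values deposited are UMI counts, as 1 matrix of 32285 genes for each library, without normalization. Here, barcodes with more than 200 genes and under 20% mitochondrial UMIs were kept and gated by UMIs as described. No nuclei were clustered, and no doublet caller was run. Leaving out the deepest 5% of base nuclei was an alternative.

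Depth matching took, from the deepest nucleus down and in up to 3 rounds, the unused nucleus nearest in log UMIs within 20%. Counts were summed per library and arm and tested with edgeR 4.0.16 (R 4.3.3) with TMM, filterByExpr and glmQLFTest, with the library as a block because both arms came from the same library. With 2 libraries this leaves 1 residual degree of freedom, supplemented by edgeR's shared estimate. Genes used by the gate and mitochondrial genes were not tested. DESeq2 1.42.0 was an alternative. CPM are counts per 1e6 summed UMIs. The procedure was run on simulated counts with a fixed dispersion of 0.02 and no library effect. It called 50% of 2-fold and 98% of 4-fold changes in the setting of the main comparison. For nuclei with *Rspo2* it called 61% and 99%, and false calls were 3 and 5 genes. The simulated sums held no differences between single nuclei, so they do not show how genes carried by few nuclei fare. Shares carry exact Clopper-Pearson intervals and a count of 0 a limit of 3 counts, both for counting error only.

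Named genes were the markers, the 15 largest rises and falls against *Etv1* = 0 nuclei and the 8 against nuclei with *Rspo2* (adjusted p under 0.05, at least 20 CPM in the higher arm, same direction in both libraries, no Gm, Rik or sex-linked models), and up to 4 called genes per list, with others added for their role. Some genes that this rule names are not reported here, and all stayed in the tests and counts. The members and the lists were chosen with earlier results of these data known. The alternatives without nuclei of other-cell lists were chosen after seeing the data. Positions are from GENCODE vM21, in which 32158 of 32285 identifiers (99.6%) were found. Library 1 held no such nuclei and entered no comparison.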

Additional observations from a re-analysis of the deposited data

Results flagged for a closer look

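Library 1, which no comparison used, held 58 base nuclei. Of these, 4 carried at least 2 *Etv1* UMIs together with *Rspo2* under the same limits on *Rorb*, *Grik1* and *Pde11a*, although the library gave 0 *Etv1*+/*Rspo2*- nuclei. These 4 nuclei are given because they lie in data that entered no comparison. With so few nuclei no share was compared with libraries 2 and 3.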

How the results depend on the processing

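Against *Etv1* = 0 nuclei (220 genes higher, 333 lower), the counts stayed within 1.5 times with 1 matched nucleus each, no matching, library size alone, no filter on low counts, thinned nuclei, without the deepest 5% of nuclei, at least 1 or 3 *Etv1* UMIs and the same limits. They fell to 24 and 107 without the library block, that is without the pairing of arms within a library, to 26 and 80 with DESeq2 (24.5% of calls higher, against 39.8%), and to 105 and 142 under the same limits without other-cell nuclei. With no limits on *Rorb*, *Grik1* and *Pde11a*, 132 were higher and 229 lower, and 1 gene was called in the opposite direction. Against nuclei with *Rspo2* (172 and 186), the block's removal gave 69 and 75 and DESeq2 47 and 52. Of the genes named by rank and the markers, 14 were no longer called against *Etv1* = 0 nuclei with DESeq2 (*Ptprc*, *Mirt1*, *Colec12*, *Prr5l*, *Jcad*, *Gpc4*, *Tfap2d*, *Cpne2*, *Rims3*, *Nxph1*, *Sema5b*, *Tmem132c*, *Sema5a* and *Bdnf*) and 4 without the block (*Prr5l*, *Cpne2*, *Bdnf* and *Cdh13*), and against nuclei with *Rspo2* 6 with DESeq2 (*Unc13c*, *Pld5*, *Sema3e*, *Sema5a*, *Adamts2* and *Cdh13*) and 2 without the block (*Sema5a* and *Cdh13*), all in the same direction. With DESeq2 against nuclei with *Rspo2*, 8 others of these genes were unchanged, and the rest had no outcome to compare. All genes called without the block or by DESeq2 were among those of the blocked fit. Of called genes described against *Etv1* = 0 nuclei, *Reln* turned to 0.50 under the same limits, *St18* to -0.15 without matching and to -0.75 without oligodendrocyte-marker nuclei, *Lhfpl3* to 0.20 without other-cell nuclei, and *Bdnf* to 0.10, *Reln* to 0.26 and *Bcl11b* to -0.12 with both settings joined, none called there. The cause was not tested beyond that construction.

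The 162 *Etv1*+/*Rspo2*- nuclei became 99 when 2 UMIs of *Slc17a7* and *Slc17a6* were required (14.5% of that base). Their share of the base was 11.5 to 14.0% with either library alone. Library 1 could not be added, having none of these nuclei. With 1 library left, no test is possible, and no list of calls was made. Of the genes named by rank and the markers, the value of library 3 alone differed from the fitted one by more than the SD between libraries for 11 of 22 genes against nuclei with *Rspo2* and 4 of 37 against *Etv1* = 0 nuclei, and that of library 2 alone for 1 and 2. Against *Etv1* = 0 nuclei, library 3 alone gave values nearer 0 for *Cdh8* (0.14), *Htr1f* (0.10), *Col12a1* (-0.22), *Fgf13* (-0.28), *Mirt1* (0.92), *Ndst3* (0.53), *Xylt1* (0.47), *Sema5a* (-1.0), *Bdnf* (-0.59) and *Otof* (-0.79), and library 2 alone for *Prr5l* (0.61), *St18* (0.49) and *Nxph1* (-1.82). Against nuclei with *Rspo2*, library 3 alone gave values nearer 0 for *Oprd1* (-0.15), *Ece2* (1.16), *Chrm3* (0.66), *St18* (0.53) and *Cfap299* (-1.16), and library 2 alone for *Unc13c* (2.61), *Slc4a4* (0.79) and *Sema5a* (-0.53). The comparison by *Lypd1* had fewer pairs than the minimum set for a test, so its alternatives were not run. Depth limits genes whose UMIs came from few nuclei, as given beside several of them.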
